A study of Homo sapiens with 12 samples.

Results

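Mitochondrial complex I was read from the 41 probe sets whose single gene in the platform annotation has a symbol starting with NDUF. They belong to 34 genes, out of 22277 probe sets and 11963 genes that some probe set reads alone. The rule for membership used no measured value, but it was chosen with earlier results of these data known. The genes are 5 of the 7 catalytic core subunits with such a symbol, 7 accessory subunits of the matrix arm, 15 accessory subunits of the membrane arm, the acyl carrier protein NDUFAB1, 5 assembly factors and an RNA antisense to NDUFB2. Of these, 32 genes were bright enough to be tested, each by 1 probe set, among the 7178 genes tested in all. A further 3 probe sets, of NDUFA6, NDUFB2 and NDUFB8, were also above the filter on dim signals, which lay at a signal of 57.4. The other 6 probe sets were below it. They were additional probe sets of NDUFA2, NDUFA5, NDUFB7 and NDUFB8, and the only probe sets of the assembly factor NDUFAF5 (signals of 4.58 to 59.2) and of the antisense RNA NDUFB2-AS1 (3.18 to 75.2). The other core subunits, accessory subunits of both arms and assembly factors of the family were not analysed here.

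The samples were RNA precipitates from MDA-MB-231 cells, a human breast cancer line that lacks the oestrogen and progesterone receptors and has mesenchymal traits. Lysates were precipitated with an antibody to eIF4E, a translation factor that holds the 5′ cap of a messenger RNA, or with control IgG, which recovers background RNA. The 4 groups were eIF4E precipitates of cells that had received 2 Gy of X-rays 6 h earlier, eIF4E precipitates of untreated cells, IgG precipitates of irradiated cells and IgG precipitates of untreated cells, with 3 Affymetrix arrays in each, which the series calls biological replicates. All came from this 1 line, and RNA from before precipitation was not analysed here, so the amount of an RNA in the cell and the share of it that came down with an antibody cannot be told apart.

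Complex I takes electrons from NADH at the tip of a matrix arm, passes them over a flavin and a chain of iron-sulfur clusters to ubiquinone, and uses the energy to pump protons through a membrane arm. Its core subunits are shared with bacteria, and the hydrophobic core of the membrane arm is encoded by mitochondrial DNA. The NDUF genes are nuclear: they supply the core of the matrix arm, the accessory subunits that surround both arms, and chaperones that build the enzyme without staying in it.

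Several arrays stood apart in ways that touch what follows. Signals are relative within an array, since each had been scaled to a trimmed mean of 500.2. The hybridization controls, added after labelling, had a geometric mean of 483.1 to 1423 on eIF4E arrays and 2447 to 10220 on IgG arrays, and with arrays scaled to these controls the median of all genes in the antibody comparison was 2.53 on the log2 scale, against -0.07 as deposited. For actin, the probe set near the 3' end over that near the 5' end, a measure of RNA length, was 1.33 to 1.53 on eIF4E arrays and 2.96 to 5.38 on IgG arrays, and the signal of the Alu repeat was 13480 to 18480 with eIF4E and 36880 to 53250 with IgG (exact permutation test, two-sided, p = 0.00216 for each, which 6 arrays against 6 cannot go below). The control bioB over bioC, by their 5' probe sets, was 0.293 to 0.386 on replicate 1 of every group and 0.0313 to 0.0822 on the other arrays. All 6 markers of MDA-MB-231 cells were above the filter, with a summed signal of 41760 to 51300 on eIF4E arrays and 72250 to 98100 on IgG arrays. Of 7 luminal breast markers, ESR1, PGR, FOXA1 and CDH1 were below the filter and KRT19 (1845 to 4932), GATA3 (603 to 1466) and ERBB2 (180 to 420) were above it. The luminal markers summed to 2952 to 3902 on eIF4E arrays and 3024 to 6391 on IgG arrays. Every leukocyte, liver, neuron and muscle marker measured was below it. RNA length itself was not measured, and the part of RNA length and scaling in the antibody differences below was not tested.

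The starts of these genes are shown first, because the RNA end that eIF4E binds begins there. RefSeq promoter windows (GRCh38.p14, 250 bases before to 50 after each start) existed for 33 of the 34 genes. The motif known as the translation initiator of short 5' UTRs (TISU) holds a start codon within a fixed context and directs initiation close to the cap. The form searched here is the capitals of the sequences below, with any base allowed at the third. No base before it was required, so a match need not meet a stricter definition of TISU. On the sense strand of the first 50 transcribed bases this form was found in 4 of the 33 NDUF genes (12.1%) and in 0.927% of the 27305 genes with a window. Those 27305 include genes that were not tested here, and 180 of the 7178 genes tested had the form there. With both strands and the whole window counted, the shares were 5 of 33 (15.2%) and 1.76%. The 4 sense matches are shown here as the sense strand, which reads like the RNA, in 30 bases each, 5′ to 3′, with the motif in capitals.
NDUFS6: agcggcgcAAAATGGCGGCggcgatgacct
NDUFS4: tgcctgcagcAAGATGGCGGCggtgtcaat
NDUFS3: gcatctgagtAACATGGCGGCggcggcggt
NDUFA9: attgtgggaaAAGATGGCGGCtgccgcaca
These lie at chr5:1801407-1801436, chr5:53560650-53560679, chr11:47579079-47579108 and chr12:4649114-4649143, all on the plus strand. The first bases printed are positions 1, 12, 6 and 1 of the transcript, in the order shown. A shorter form, without the last letter and with G at the third, overlaps the first motif where that base is G and was searched after the values were known. It was found on the sense strand of the first 50 bases of NDUFA6, NDUFA9, NDUFB8, NDUFS4 and NDUFS7. That is 15.2% of 33, against 0.905% of the 27305 genes with a window and 173 of the 7178 genes tested. The 3 genes not yet shown are printed in the same way, with the shorter form in capitals.
NDUFB8: gaagaaggtgAAGATGGCGGtggccagggc
NDUFS7: ggccgaggccAAGATGGCGGtgctgtcagg
NDUFA6: atgctttggcAAGATGGCGGggagcggcgt
They lie at chr10:100529835-100529864 (minus strand), chr19:1383914-1383943 (plus strand) and chr22:42090728-42090757 (minus strand), from positions 8, 8 and 16 of the transcript. A match is a run of letters and not a measured site of initiation.

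Recovery with eIF4E over IgG asks which RNAs came down with the cap-binding protein above background. Messenger RNAs of complex I were mostly higher with eIF4E. Averaged over irradiated and untreated cells, 29 of the 32 tested NDUF genes were higher and 1 was lower at an adjusted p of 0.05 by limma, where 32.5% of all genes tested were higher and 38.2% lower. With arrays scaled to the hybridization controls, 32 NDUF genes were higher and 0 lower, as were 6964 and 0 of the 7178 genes. The median log2 difference was 1.12 for the NDUF genes and -0.07 for all genes tested, and 20 NDUF genes were at least 2-fold higher (12.3% of all genes). In 27 NDUF genes every eIF4E array lay above every IgG array (23.1% of all genes), and in 1 gene every eIF4E array lay below (26.7%). Centred on each gene's own mean, the median NDUF gene stood 0.47 to 0.69 above it on the 6 eIF4E arrays and between -0.67 and -0.41 on the 6 IgG arrays. Of the 32, NDUFAF7 and NDUFS1 were below 0 with the deposited scale, and with the hybridization controls as scale they were at 2.59 and 1.66.

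**Figure D1:**
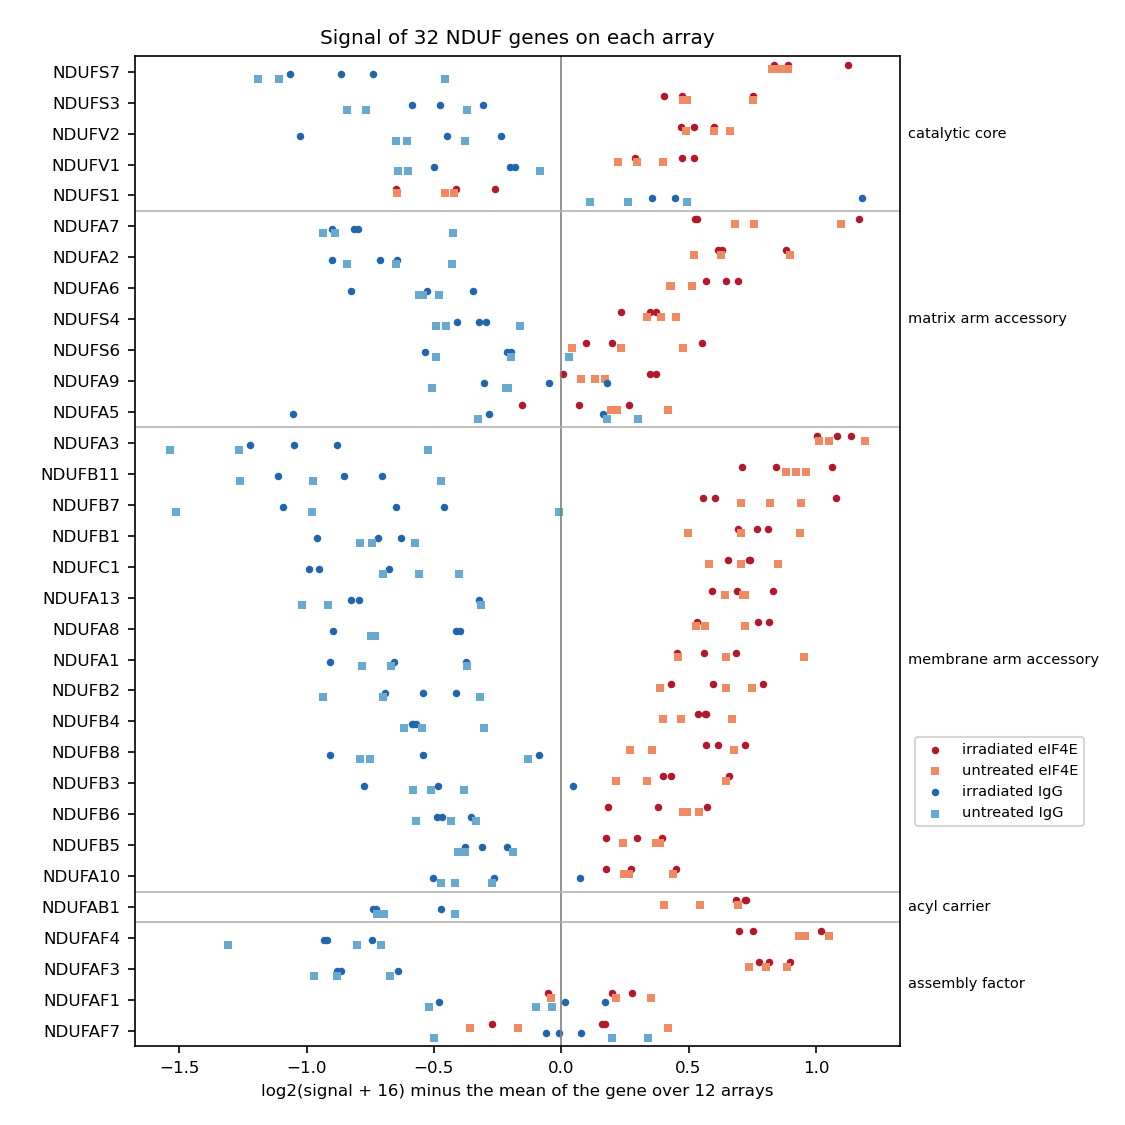
Signal of each of the 32 tested NDUF genes on each of the 12 arrays, as log2(signal + 16) minus the mean of the gene over the arrays (horizontal axis), with genes grouped by role. Red (irradiated) and orange (untreated) points are eIF4E arrays, dark blue (irradiated) and light blue (untreated) points are IgG arrays. The eIF4E arrays lie to the right of the IgG arrays in 27 genes and to the left in NDUFS1, whose difference is above 0 with the hybridization controls as scale.

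Among the catalytic core, 4 of the 5 subunits measured were higher and 1 was lower. NDUFS7 carries the last iron-sulfur cluster before ubiquinone. Its signal was 2673, 2265 and 2183 in irradiated and 2218, 2167 and 2270 in untreated eIF4E precipitates, against 659.6, 721 and 573 in irradiated and 882, 555 and 524 in untreated IgG precipitates. The lowest eIF4E array was far above the highest IgG array, and the difference was 1.81 ± 0.13 on the log2 scale (SE, 6 arrays of each antibody, limma adjusted p = 3.09e-09). NDUFS3, a structural core subunit at the ubiquinone end, had 4494, 3523 and 3695 in irradiated and 4494, 3746 and 3709 in untreated eIF4E precipitates, against 1905, 1764 and 2144 in irradiated and 2052, 1555 and 1476 in untreated IgG precipitates. It was higher by 1.12 ± 0.11 (adjusted p = 1.3e-07), again with no overlap of arrays. NDUFV2, which holds a cluster beside the flavin, had 4818, 5085 and 4652 in irradiated and 5314, 4708 and 5081 in untreated eIF4E precipitates, against 1637, 2451 and 2843 in irradiated and 2195, 2572 and 2132 in untreated IgG precipitates. Its difference was 1.12 ± 0.12 (adjusted p = 3.47e-07), and the irradiated IgG arrays were the most spread of its groups. NDUFV1, the subunit that binds NADH and the flavin, had 2826, 2408 and 2740 in irradiated and 2295, 2601 and 2422 in untreated eIF4E precipitates, against 1709, 1733 and 1387 in irradiated and 1855, 1256 and 1290 in untreated IgG precipitates. It was the least raised of these 4, at 0.74 ± 0.11 (adjusted p = 1.9e-05), and its arrays did not overlap.

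NDUFS1, the subunit with several of the iron-sulfur clusters between flavin and ubiquinone, went the other way on the deposited scale. Its signal was 640.1, 574 and 486 in irradiated and 572, 557 and 487 in untreated eIF4E precipitates, against 1767, 992 and 1055 in irradiated and 834, 1092 and 927 in untreated IgG precipitates. All 6 eIF4E arrays were below all 6 IgG arrays, and replicate 1 of irradiated IgG was the highest. The difference was -0.95 ± 0.14 averaged over treatments (adjusted p = 1.31e-05), -1.10 ± 0.20 in irradiated cells (adjusted p = 0.000162) and -0.80 ± 0.20 in untreated cells (adjusted p = 0.0025). It stayed between -1.03 and -0.82 when each array was left out in turn. Of all genes tested, 15.5% had a lower difference than NDUFS1, so its place was not extreme among genes in general.

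Of the 7 accessory subunits of the matrix arm that were measured, 6 were higher and 1 did not pass, with a median of 0.71. NDUFA7, in the part of the arm that reduces ubiquinone, led them. It had 2085, 1328 and 1336 in irradiated and 1982, 1564 and 1484 in untreated eIF4E precipitates, against 484, 520.5 and 515 in irradiated and 489, 472 and 679 in untreated IgG precipitates. The difference was 1.59 ± 0.13 (adjusted p = 2.69e-08), and replicate 1 was the highest array within both eIF4E groups. NDUFA2, a subunit with a thioredoxin fold, was higher by 1.39 ± 0.11, NDUFA6, which anchors an acyl carrier protein to the matrix arm, by 1.10 ± 0.09 and NDUFS4, one of the subunits added late to the NADH end, by 0.71 ± 0.09, all without overlap of arrays.

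The other 3 measured in this arm lay near the limit of what 3 arrays a group resolve. NDUFS6, a zinc-binding subunit added late in assembly, had 7676, 5597 and 6015 in irradiated and 7290, 5382 and 6165 in untreated eIF4E precipitates, against 4518, 3608 and 4567 in irradiated and 5349, 4564 and 3713 in untreated IgG precipitates. Its arrays were apart, though by little, and the difference was 0.53 ± 0.12 (adjusted p = 0.00076). In untreated cells alone it was 0.47 ± 0.17 (adjusted p = 0.0243), a call lost without untreated eIF4E replicate 1 or 3 (adjusted p = 0.115 and 0.0546) or untreated IgG replicate 2 or 3 (0.0509 and 0.131). NDUFA9, a subunit at the joint between the arms, had 1192, 1515 and 1539 in irradiated and 1339, 1303 and 1255 in untreated eIF4E precipitates, against 1347, 959.5 and 1147 in irradiated and 1025, 1018 and 829.6 in untreated IgG precipitates. The irradiated groups overlapped and the untreated ones did not. Its difference was 0.37 ± 0.11 over both treatments (adjusted p = 0.007). It was 0.44 ± 0.16 in untreated cells (adjusted p = 0.0235), which was lost without untreated eIF4E replicate 1 or 2 (0.066 and 0.057) or untreated IgG replicate 3 (0.109). In irradiated cells it was 0.30 ± 0.16 (adjusted p = 0.112) and passed without irradiated eIF4E replicate 1 (0.045), without irradiated IgG replicate 1 (0.0313) or without replicate 1 of every group (0.0062), as well as with median centring (0.0246) and array quality weights (0.0161). Without irradiated IgG replicate 2 it was 0.18 (adjusted p = 0.368). NDUFA5, of the ubiquinone-reducing part, had 1155, 1325 and 989 in irradiated and 1477, 1262 and 1284 in untreated eIF4E precipitates, against 522, 902 and 1235 in irradiated and 875, 1250 and 1358 in untreated IgG precipitates. Both pairs of groups overlapped. The difference of 0.34 ± 0.17 did not pass (adjusted p = 0.0879), but it was 0.17 when irradiated IgG replicate 1 was left out (adjusted p = 0.248) and 0.48 when irradiated IgG replicate 3 was (adjusted p = 0.0126). It also passed with median centring (0.47, adjusted p = 0.0189).

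All 15 measured accessory subunits of the membrane arm were higher with eIF4E, by 0.62 to 2.16 with a median of 1.25. None of them had overlapping arrays. NDUFA3, at the foot of the arm, had the largest difference of any NDUF gene. Its signal was 4556, 4387 and 4154 in irradiated and 4741, 4177 and 4291 in untreated eIF4E precipitates, against 990.3, 876 and 1113 in irradiated and 1430, 701 and 850 in untreated IgG precipitates. The difference was 2.16 ± 0.14 (adjusted p = 1.62e-09), higher than that of 99.3% of all genes tested. NDUFB11, of the distal end of the arm, had 5272, 4522 and 4124 in irradiated and 4780, 4652 and 4913 in untreated eIF4E precipitates, against 1540, 1388 and 1156 in irradiated and 1809, 1040 and 1273 in untreated IgG precipitates. It was higher by 1.79 ± 0.13 (adjusted p = 3.59e-09), and within untreated IgG replicate 1 was the highest, as it was for NDUFA3. NDUFB7, a disulfide-bonded subunit on the outer face, was higher by 1.57 ± 0.20, with the widest spread of the arm because its untreated IgG signals were 853, 291 and 428.

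The remaining 12 measured subunits of this arm filled the range between 0.62 and 1.47. NDUFB1 was higher by 1.47 ± 0.10, NDUFC1 by 1.42 ± 0.09 and NDUFA13, also known as GRIM-19, by 1.40 ± 0.13. NDUFA8 (1.31), which faces the space between the membranes, the small membrane protein NDUFA1 (1.25), NDUFB2 (1.20), NDUFB4 (1.07) and NDUFB8 (1.07) were also at least 2-fold higher. NDUFB3 (0.90), NDUFB6 (0.88), NDUFB5 (0.62) and NDUFA10 (0.62), a subunit with the fold of a nucleoside kinase, passed the test below that size. NDUFC1 had 7230, 7664 and 7695 in irradiated and 8297, 6872 and 7506 in untreated eIF4E precipitates, against 2306, 2367 and 2865 in irradiated and 3476, 2824 and 3115 in untreated IgG precipitates. Its difference was 1.58 ± 0.13 in irradiated cells and 1.27 ± 0.13 in untreated cells.

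The promoter of NDUFA3 held the motif of the transcription factor NRF1 at a pair of places upstream of the start. The stretch from position -175 is shown with both in capitals, any base being allowed at the sixth letter (chr19:54102680-54102796, plus strand).
NDUFA3: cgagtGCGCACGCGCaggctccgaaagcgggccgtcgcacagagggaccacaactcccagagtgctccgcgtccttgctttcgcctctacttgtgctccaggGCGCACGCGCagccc
The motif was in 5 of 33 NDUF windows (15.2%) and in 6.98% of all, on either strand. Besides NDUFA3 it was in NDUFA8, NDUFA9, NDUFB4 (at -159, -63 and -8) and NDUFAF5. The first 3 of these differed by 1.31, 0.37 and 1.07 between antibodies, and NDUFAF5 was below the filter. CCGGAAG, of the ETS family, was in 6 windows (18.2%) and 12.2%. The 4 genes with the TISU form in the sense strand of their transcribed start differed by 0.37 (NDUFA9), 0.53 (NDUFS6), 0.71 (NDUFS4) and 1.12 (NDUFS3) between antibodies. The first 3 of these were below the NDUF median of 1.12, and NDUFS3 was at it. Over the 180 tested genes with that sense match, the median was 0.02, with 74 higher and 62 lower, against a median of -0.07 and shares of 32.5% higher and 38.2% lower over all genes tested. For the shorter form, the 173 tested genes with a sense match had a median of 0.06, with 71 higher and 56 lower.

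NDUFAB1, the mitochondrial acyl carrier protein, serves fatty acid synthesis and is held in both arms of complex I. It had 9159, 9386 and 9423 in irradiated and 9215, 7536 and 8299 in untreated eIF4E precipitates, against 3400, 4093 and 3427 in irradiated and 4258, 3437 and 3503 in untreated IgG precipitates. The groups were wide apart and the difference was 1.26 ± 0.09 (adjusted p = 6.18e-09).

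The assembly factors split. NDUFAF4 and NDUFAF3, partners in building the part of the matrix arm that reduces ubiquinone, were among the most raised NDUF genes. NDUFAF4 had 1466, 1765 and 1412 in irradiated and 1664, 1808 and 1692 in untreated eIF4E precipitates, against 445, 509 and 449 in irradiated and 339, 522 and 488 in untreated IgG precipitates. NDUFAF3 had 2779, 2556 and 2622 in irradiated and 2758, 2487 and 2600 in untreated eIF4E precipitates, against 945, 807 and 798 in irradiated and 924, 749.5 and 799 in untreated IgG precipitates. The differences were 1.81 ± 0.12 for NDUFAF4 (adjusted p = 1.61e-09) and 1.64 ± 0.09 for NDUFAF3 (adjusted p = 5.97e-10), with no overlap in either.

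NDUFAF1, a factor for the membrane arm, and NDUFAF7, a methyltransferase that modifies a core subunit, did not share that size of difference. NDUFAF1 had 661, 523 and 625 in irradiated and 698, 631 and 527 in untreated eIF4E precipitates, against 612, 384.5 and 547.5 in irradiated and 505, 528 and 373 in untreated IgG precipitates. The groups overlapped in both treatments, and the difference of 0.32 ± 0.14 passed narrowly (adjusted p = 0.047). It no longer passed without irradiated eIF4E replicate 1 (adjusted p = 0.0982) or 3 (0.0879), untreated eIF4E replicate 1 (0.111) or 2 (0.0826), irradiated IgG replicate 2 (0.131) or untreated IgG replicate 3 (0.131). It did not pass in irradiated cells alone (0.24 ± 0.19, adjusted p = 0.297) or in untreated cells alone (0.39 ± 0.19, adjusted p = 0.0894). In irradiated cells it was 0.050 without IgG replicate 2 (adjusted p = 0.837) and 0.38 without IgG replicate 1 (adjusted p = 0.121). In untreated cells it was 0.24 without IgG replicate 3 (adjusted p = 0.334), and it passed with median centring (0.51, adjusted p = 0.0386). NDUFAF7 was dim, with 100.5, 99.8 and 69.6 in irradiated and 76.0, 122 and 64.8 in untreated eIF4E precipitates, against 93.3, 83.2 and 86.9 in irradiated and 57.1, 115 and 103 in untreated IgG precipitates. Its arrays were interleaved and its difference was -0.02 ± 0.20 (adjusted p = 0.95).

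Where a gene had a further probe set above the filter, it was higher too. NDUFB2 by its other probe set was higher by 1.49 ± 0.08 (adjusted p = 5.83e-10, where 31.5% of the 10566 probe sets tested were higher and 38.3% lower), against 1.20 by the probe set that stands for the gene. The other probe set of NDUFB8 gave 1.42 ± 0.11 (adjusted p = 1.29e-08) against 1.07, and that of NDUFA6 gave 0.68 ± 0.12 (adjusted p = 8e-05) against 1.10. All 3 were also higher within irradiated cells and within untreated cells, as were 25.9% of the probe sets in each.

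**Figure D2:**
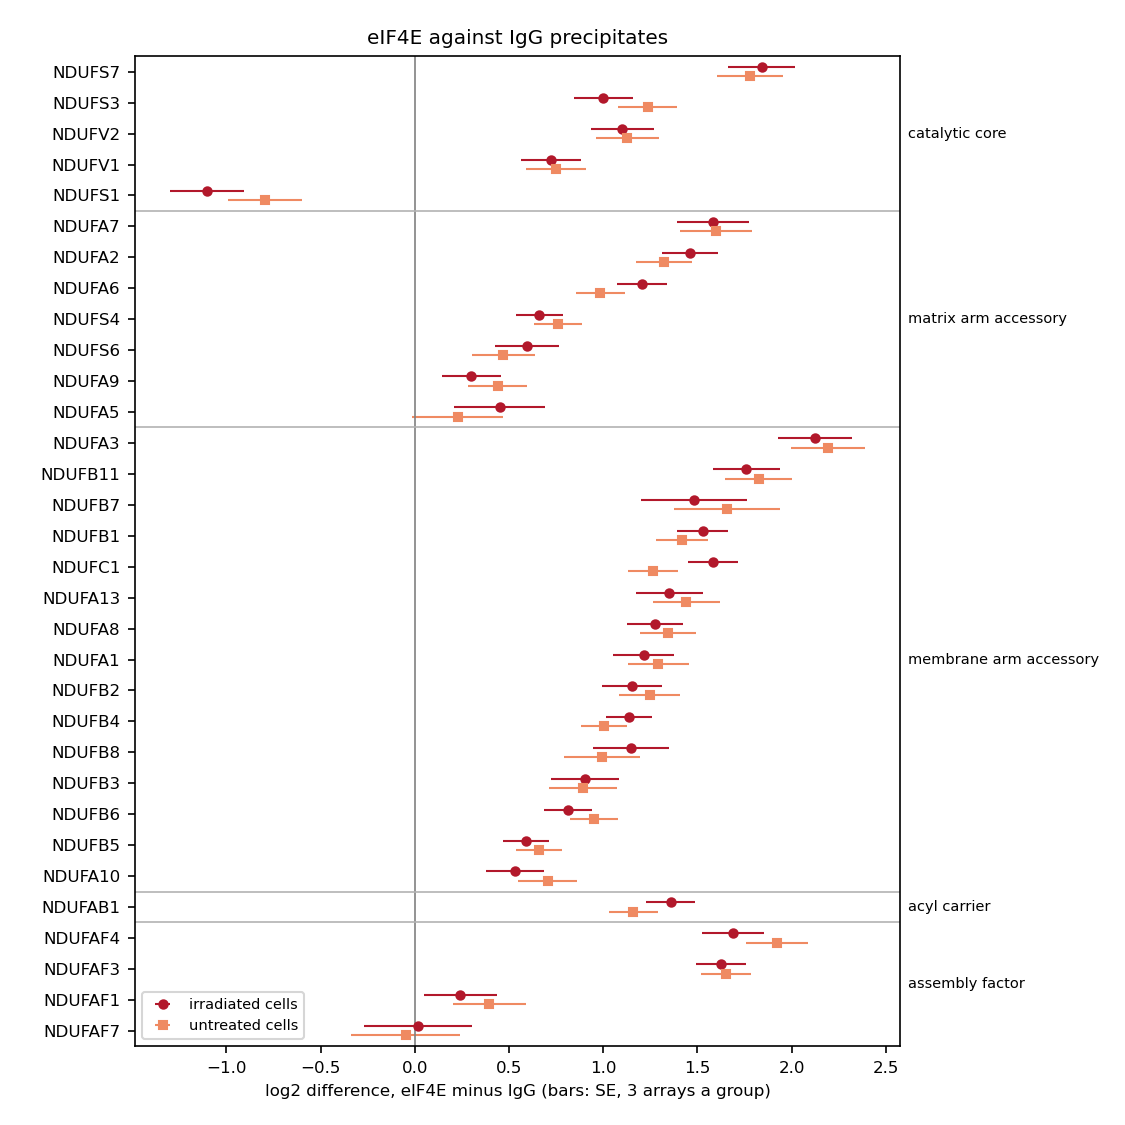
Log2 difference of eIF4E minus IgG for each tested NDUF gene in irradiated (dark red circles) and untreated cells (orange squares), with bars of 1 SE and 3 arrays a group. NDUFA3 leads in both at 2.12 and 2.19, and NDUFS1 is the only gene well below 0 in both, at -1.10 and -0.80 (1.45 and 1.87 with the hybridization controls as scale).

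Each treatment by itself gave nearly the same counts. In irradiated cells 27 NDUF genes were higher and 1 lower (27.2% and 32.3% of all genes). Their median was 1.15, and 20 were at least 2-fold higher (12.1%). In untreated cells 28 were higher and 1 lower (27.2% and 31.7%). Their median was 1.14, and 18 were at least 2-fold higher (12.9%). Arrays lay apart and higher in 27 NDUF genes of irradiated cells (29.0% of all genes) and in 28 of untreated cells (30.6%), and NDUFS1 alone was apart and lower in both (33.4% and 36.1%). The largest differences in irradiated cells were those of NDUFA3 (2.12 ± 0.20), NDUFS7 (1.84 ± 0.18), NDUFB11 (1.76 ± 0.18), NDUFAF4 (1.69 ± 0.16), NDUFAF3 (1.63 ± 0.13) and NDUFC1. In untreated cells they were those of NDUFA3 (2.19 ± 0.20), NDUFAF4 (1.92 ± 0.16), NDUFB11 (1.82 ± 0.18), NDUFS7 (1.78 ± 0.18), NDUFB7 (1.66 ± 0.28) and NDUFAF3 (1.65 ± 0.13). NDUFS1, NDUFAF7, NDUFAF1, NDUFA9 and NDUFA5 were among the 6 smallest in both treatments. The sixth was NDUFA10 in irradiated cells (0.53 ± 0.16, adjusted p = 0.00766) and NDUFS6 in untreated cells. NDUFA5 was at 0.45 ± 0.24 in irradiated (adjusted p = 0.121) and 0.23 ± 0.24 in untreated cells (adjusted p = 0.441). Single IgG arrays moved both values of NDUFA5. In irradiated cells it was 0.12 without IgG replicate 1 (adjusted p = 0.622) and 0.73 without IgG replicate 3 (adjusted p = 0.0143), and it passed with median centring (0.60, adjusted p = 0.039). In untreated cells it was 0.038 without IgG replicate 1 (adjusted p = 0.912) and 0.35 without IgG replicate 3 (adjusted p = 0.295).

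Taken 1 replicate number at a time, the difference of the same-numbered eIF4E and IgG arrays was above 0 in 30, 31 and 29 of the 32 NDUF genes for irradiated cells and in 31, 31 and 29 for untreated cells. Over all genes the share above 0 in these 6 differences was 45.6% to 48.3%. Replicate 1, which the bioB to bioC ratio set apart, had NDUF medians of 1.22 in irradiated and 1.07 in untreated cells. Without replicate 1 of every group, 28 NDUF genes were higher and 1 lower over both treatments, where 2318 of all 7178 genes were higher and 2711 lower.

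The other respiratory chain complexes give the neighbourhood of these values. Complexes II to V had 35 tested genes. With eIF4E, 30 of them were higher and 2 lower, and their median was 0.89, beside 32.5% higher, 38.2% lower and a median of -0.07 over all genes tested. By complex, the median was 0.38 for 4 genes of complex II (2 higher, 1 lower), 1.27 for 7 of complex III (6 higher), 0.89 for 10 of complex IV (all higher) and 0.86 for 14 of complex V (12 higher, 1 lower). Complex I assembly factors without an NDUF symbol had 6 tested genes, 3 of them higher and 1 lower (median 0.53). The supercomplex factor COX7A2L, the scaffold protein STOML2 and the prohibitins PHB1 and PHB2 were all higher (4 of 4), with a median of 0.79. No test was made between these lists and the NDUF genes.

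**Figure D3:**
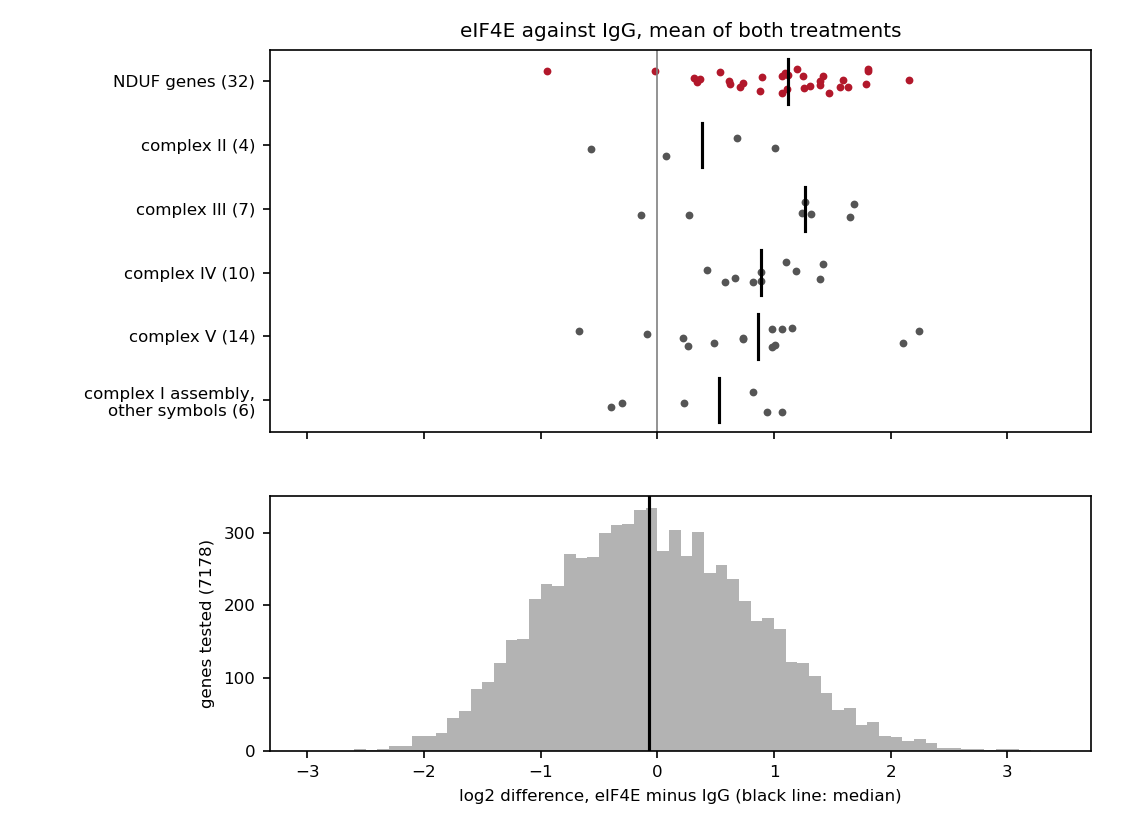
Log2 difference of eIF4E minus IgG over both treatments for the 32 NDUF genes (red) and for genes of complexes II to V and other complex I assembly factors (grey points), above a histogram of all 7178 genes tested, with black lines at the medians. The NDUF median of 1.12 lies right of the median of all genes at -0.07, and the medians of complexes III to V lie between 0.86 and 1.27.

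NDUF genes are short, and gene length moved with the antibody difference across all genes. The genomic span of a gene, from its first to its last base with introns, had a median of 12304.5 bp in the 32 NDUF genes and 31370 bp in all genes tested. Across the NDUF genes, log10 span and the difference correlated at r = -0.63 and rho = -0.67 (32 genes, -0.63 and -0.64 without NDUFS1). Across 7177 genes the values were -0.46 and -0.47. Genes share arrays and are not independent replicates, so these are descriptions. Within each class of span the NDUF median was above that of all genes. It was 1.64 for 5 NDUF genes and 0.68 for 622 genes of up to 5 kb. From 5 to 10 kb it was 1.12 for 9 NDUF genes and 0.45 for 761 genes. From 10 to 20 kb it was 1.33 for 8 NDUF genes and 0.26 for 1208 genes. Genes of 20 to 50 kb, NDUFS1 among them, had 0.62 for 7 NDUF genes and -0.10 for 2049 genes. Over 50 kb, NDUFS4, NDUFA10 and NDUFA5 had a median of 0.62 and 2537 genes had -0.56. The part of span in the differences was not tested beyond these classes.

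**Figure D4:**
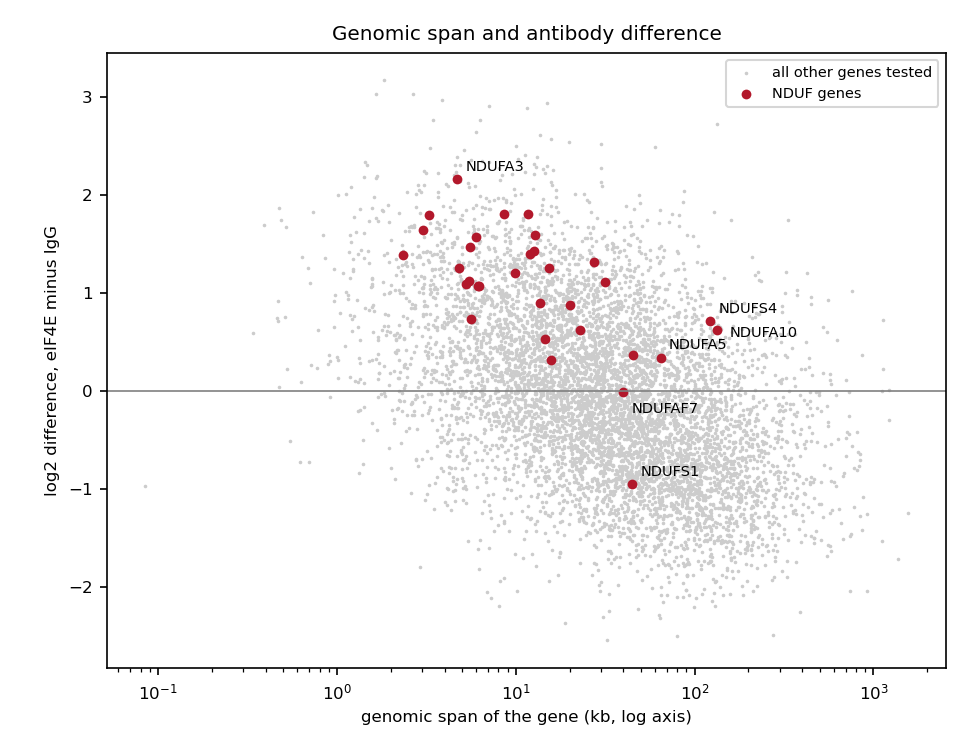
Genomic span of each gene in kb (log axis) against its log2 difference of eIF4E minus IgG over both treatments, for NDUF genes (red) and all other genes tested (grey). Both clouds slope down, and the 3 NDUF genes over 50 kb lie between 0.34 and 0.71 while the median of all genes of that span is -0.56.

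Irradiation against no treatment asks whether the share of signal of these RNAs in a precipitate moved 6 h after 2 Gy. With limma, 0 of 32 NDUF genes passed in eIF4E precipitates, 0 in IgG precipitates and 0 for the difference between both effects. Over all 7178 genes tested the count was also 0 (0%) in each. At an unadjusted p under 0.05 the counts of NDUF genes were 0, 1 and 0, where 1.14%, 6.62% and 3.01% of all genes reached that level. Every alternative setting run also gave 0 NDUF genes in these 3 comparisons. The median log2 difference was 0.01 in eIF4E and 0.03 in IgG precipitates.

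In eIF4E precipitates the largest differences were those of NDUFB8 (0.20 ± 0.20), NDUFA6 (0.18 ± 0.13) and NDUFAB1 (0.16 ± 0.13), and the smallest those of NDUFA5 (-0.22 ± 0.24), NDUFAF4 (-0.16 ± 0.16) and NDUFB6 (-0.13 ± 0.13), each with an adjusted p of 1. NDUFA6 had 5106, 5276 and 4836 in irradiated against 4399, 4653 and 4382 in untreated eIF4E precipitates. It was the only NDUF gene whose arrays did not overlap there, where 4.85% of all genes had irradiated arrays above untreated ones and 4.56% had them below. In IgG precipitates 0 NDUF genes had arrays apart in either direction (4.53% of all genes above, 4.15% below). For NDUFB8 the signals were 6697, 6210 and 6023 in irradiated and 6487, 4885 and 5196 in untreated eIF4E precipitates, which overlap. The 95% intervals of all 32 genes lay within 2-fold either way, the widest bounds being -0.73 for NDUFA5 and 0.67 for NDUFAF7. The SEs ran from 0.12 to 0.29, so precision differed between genes, and changes inside a gene's own interval were not resolved. These SEs and intervals come from the unpaired fit, although eIF4E arrays of the same replicate number were later taken as paired.

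In IgG precipitates the largest differences were those of NDUFS1 (0.37 ± 0.20, adjusted p = 0.732), NDUFA9 (0.26 ± 0.16, adjusted p = 0.734) and NDUFS3 (0.20 ± 0.15, adjusted p = 0.756). The smallest were those of NDUFA5 (-0.44 ± 0.24, adjusted p = 0.734), NDUFC1 (-0.32 ± 0.13, adjusted p = 0.654) and NDUFA2 (-0.11 ± 0.15, adjusted p = 0.871). NDUFC1 was the gene with an unadjusted p under 0.05 (0.0266), and its irradiated and untreated IgG arrays overlapped. The 95% intervals in IgG precipitates reached from -0.95 for NDUFA5 to 0.79 for NDUFS1. The difference between the irradiation effects in eIF4E and in IgG was largest for NDUFC1 (0.32 ± 0.19), NDUFA5 (0.22 ± 0.34) and NDUFA6 (0.22 ± 0.19) and smallest for NDUFS1 (-0.31 ± 0.28), NDUFS3 (-0.23 ± 0.22) and NDUFAF4 (-0.23 ± 0.23), each with an adjusted p of 0.999. Its 95% intervals reached from -1.01 for NDUFB7 to 0.95 for NDUFA5.

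**Figure D5:**
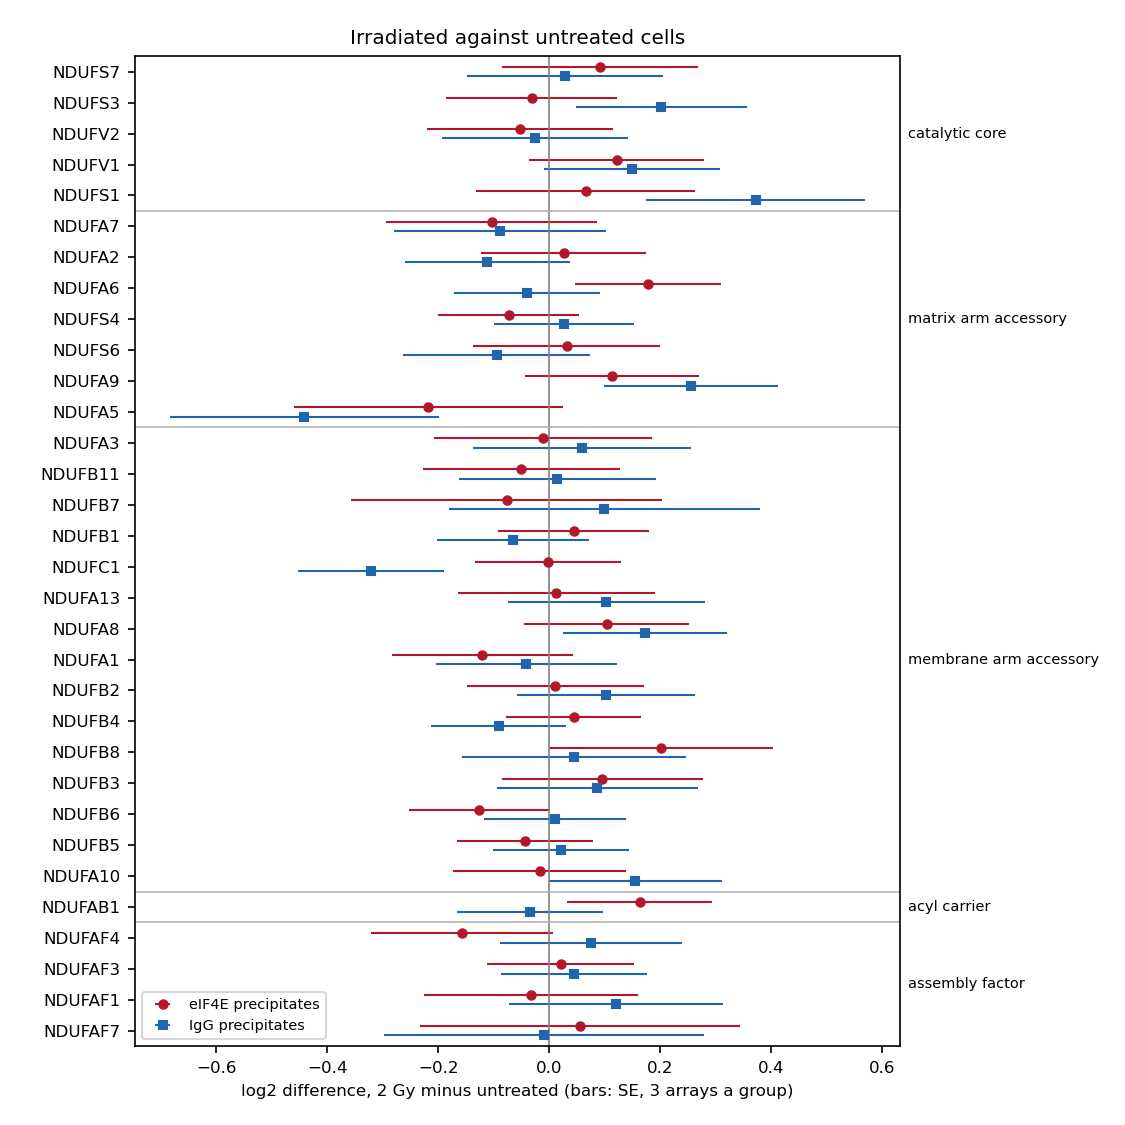
Log2 difference of irradiated minus untreated cells for each tested NDUF gene in eIF4E (red circles) and IgG precipitates (blue squares), with bars of 1 SE and 3 arrays a group. Values lie between -0.22 and 0.20 in eIF4E and between -0.44 and 0.37 in IgG precipitates, and none passed the test.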

How the data were processed

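RNA precipitated from MDA-MB-231 lysates was measured on 12 Affymetrix arrays. The deposited table holds 1 intensity per probe set and array, on a linear scale, made by the authors with MAS5 per the submitters' processing notes. Its version and settings are not given in the sources used here, and 0 columns were left unused. Signals were used as deposited.

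Probe sets were named through GEO's platform annotation, and the symbols of 19052 were updated through gene identifiers to RefSeq (GRCh38.p14). Of 22277 probe sets, 62 were controls, 19064 had 1 gene, 1043 had several and 2108 had none, and the last 2 kinds were left out. Each gene was represented by its brightest probe set (those ending in _x_at only without another), and genes under the 40th percentile of mean log2 signal were dropped. log2(signal + 16), which understates differences of dim genes, was fitted with limma 3.58.1 in R 4.3.3 (4 group means, eBayes with a trend, Benjamini-Hochberg over 7178 genes at 0.05). Every single-gene probe set above the filter was fitted separately. The number of arrays limits the precision. Identical values were found in 0 pairs of arrays. The series calls the replicates biological, but nothing says that they came from separate cultures, so p-values measure the spread between these arrays. Figures were drawn with matplotlib 3.10.9.

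The members, role lists and alternatives were chosen with earlier results of these data known. Named genes are the 6 largest and 6 smallest differences per antibody comparison, the 3 largest and 3 smallest per irradiation comparison, and every core subunit, assembly factor and NDUFAB1. All other members are given for completeness. Genomic span from RefSeq was used in place of the planned protein length, which was not used here.

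To see whether same-numbered arrays belong together, their deviations from the group means were correlated across genes. For irradiated against untreated eIF4E arrays this gave 0.374 (replicate 1), 0.208 (replicate 2) and 0.181 (replicate 3), so these were taken as paired, from the values and not from the labels. Every other pair of groups had a replicate number under 0.1. The replicate block listed below nevertheless covered the IgG arrays too. The main fit, which gave the SEs and intervals in the text, used no pairing. Alternatives changed the pseudocount (1 or 64), the filter (none, or the 60th percentile), the scale (quantile or centred on the median), the variance model (no trend, or array quality weights), the samples in the fit (the compared groups alone, each array left out, replicate 1 left out of every group), the probe sets of a gene (their mean, or each alone) and the pairing (a replicate block). Scaling to the hybridization controls and the differences of same-numbered arrays were added after seeing the data.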

Additional observations from a re-analysis of the deposited data

How the results depend on the processing

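The counts of NDUF genes in the antibody comparisons held under every alternative in which arrays keep their overall level. Higher with eIF4E were 28 to 30 genes over both treatments, 27 to 29 in irradiated cells and 26 to 29 in untreated cells, and 1 gene, NDUFS1, was lower in each. In the alternatives with 7178 genes tested, all genes higher were 2217 to 2704, 1677 to 2316 and 1730 to 2283, in the same order. All genes lower were 2332 to 2854, 1917 to 2439 and 1942 to 2598. As single probe sets, 32, 30 and 31 were higher (31.5%, 25.9% and 25.9% of all probe sets tested). The replicate block grouped eIF4E and IgG arrays alike by replicate number, although only eIF4E arrays had been taken as paired. It is thus not a test of the eIF4E pairing alone. This block left 29 higher and 1 lower over both treatments (5244 genes of all past the threshold, against 5078) and changed no NDUF call. Over all genes the median was -0.07, with 2334 higher and 2744 lower. With median centring it was 0.06, with 2704 and 2332, and with quantile normalization the split was 2519 and 2502. The NDUF medians were then 1.25 and 1.05. Scaling to the hybridization controls, chosen after seeing the data, put the median of all genes at 2.53. It left 0 NDUF genes lower in each antibody comparison and 6522 genes past the threshold in untreated cells. NDUFS1 turned to 1.66 over both treatments, 1.45 in irradiated cells (adjusted p = 0.0625) and 1.87 in untreated cells, and NDUFAF7 to 2.59 over both and 2.62 in untreated cells. The sign of NDUFS1 thus depends on the scale.

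Small differences changed sign. As the mean of its probe sets, NDUFA5 was at -0.12 over both treatments, -0.057 in irradiated and -0.18 in untreated cells, and at 0.025 for irradiation in eIF4E precipitates. It was at -0.033 in untreated cells without replicate 1 of every group. Its difference of irradiation effects ranged from -0.11 to 0.50 when single arrays were left out. NDUFAF7 was at 0.078 (quantile) and 0.12 (centring) over both treatments, at 0.079 and 0.070 in untreated cells, and at -0.082 (array weights) and -0.021 (without replicate 1 of every group) in irradiated cells. With single arrays left out it ranged from -0.14 to 0.066 over both treatments, from -0.059 to 0.16 in irradiated and from -0.31 to 0.12 in untreated cells. NDUFA2 in IgG precipitates was at 0.023 as the mean of its probe sets and 0.069 without replicate 1 of every group. NDUFAF1 also lost its call with no filter (adjusted p = 0.0701), without a variance trend (0.0585) and with replicate 1 of every group left out (0.0603). Calls were gained with median centring by NDUFA5 over both treatments (0.47) and in irradiated cells (0.60), by NDUFAF1 in untreated cells (0.51) and by NDUFA9 in irradiated cells (0.45), and by NDUFA9 in irradiated cells with array weights (0.42) and with replicate 1 of every group left out (0.53). NDUFB7 lost its call in untreated cells as the mean of its probe sets (0.62, adjusted p = 0.0731). The mean of probe sets took in those under the filter too, with signals of 1.63 to 28.8 for NDUFA5, 3.07 to 68.6 for NDUFA2 and 9.50 to 87.0 for NDUFB7. The cause was not tested in these cases. Among all genes, irradiation gave 2 past the threshold in eIF4E precipitates with array weights. In IgG precipitates it gave 1 with a pseudocount of 1, 1 without a variance trend, 2 as probe set means, and 0 to 1 with single arrays left out, the 1 being without untreated IgG replicate 1. No NDUF gene was among them.

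Limits are the scaling of each array to 1 mean, 3 arrays a group, and probe sets under the filter (6 of 41), for which no direction is given. A further limit is that the 3' to 5' ratio of actin, an indirect measure of RNA length, differs between antibodies.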
